A study of Drosophila melanogaster with 12 samples.

Results

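The 10 genes described here encode proteins of the pleated septate junction and of the basolateral polarity module of insect epithelia. They were chosen by symbol: cora, Nrx-IV, nrv2, sinu, kune, Mcr and Tsf2 for the junction, and dlg1, scrib and l(2)gl for polarity. All 10 symbols were found among the 17807 genes of the counts table, and all 10 passed the filter on low counts, which left 7584 genes for testing. Genes of the gut-type, smooth septate junction, such as mesh and Ssk, were not part of the choice.

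Pleated septate junctions seal the spaces between cells of ectodermal epithelia, such as epidermis, trachea, hindgut and salivary gland, and limit the diffusion of solutes between the cells. Their core is a complex of transmembrane adhesion proteins, claudins and sodium pump subunits, tied at the cytoplasmic face to scaffold proteins. In Drosophila embryos, loss of one core protein usually leaves the others mislocalised along the lateral membrane. Scribble, Discs large and Lethal giant larvae act together in setting the basolateral domain, and Scribble and Discs large sit at the septate junction in mature epithelia.

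The samples were total RNA of salivary glands, taken from Drosophila melanogaster prepupae 12 or 14 h after the puparium formed. All animals carried w1118 and fkh>GFP, a fluorescent reporter under control of fkh, a gene active in the salivary gland. The controls held 1 copy of the allele E93Δ1 over a wild-type chromosome (+/E93Δ1), so they were heterozygotes, and the mutants held the pair E93Δ12/E93Δ13. Each of the 4 groups of genotype and time had 3 libraries. E93, listed as Eip93F, encodes an ecdysone-induced transcription factor, and the study asked how it shapes the response of tissues to the steroid ecdysone in metamorphosis. The labels do not say which part of the gene each allele changes, whether glands were pooled, or whether replicates came from separate animals, so p-values measure the spread between these libraries, which may be technical.

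Libraries held 6977403 to 9497317 counts, so that 3 counts stood for 0.28 to 0.519 CPM (the counts scaled to a common library size, here by TMM, which adjusts for composition). Every member lay above this limit in every library. Counts over Eip93F were 1180, 1920 and 2080 CPM in 12 h controls and 4060, 4310 and 3870 CPM in 12 h mutants, and 776, 865 and 894 CPM in 14 h controls and 1960, 1980 and 2020 CPM in 14 h mutants. They were higher in all mutant libraries, and because the altered part of the gene is not given, this count does not check the genotype label. The salivary gland transcription factor genes fkh, sage and CrebA were detected in all 12 libraries. With Sgs3, Sgs5, Sgs7 and Sgs8 they made a list of 7 gland markers. Of these, 3 were called higher in mutants at 12 h and 2 at 14 h, and none was lower. Over time, 1 rose and 3 fell in each genotype.

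Some libraries stood apart from their groups. Mutant replicate 1 of 12 h and mutant replicate 2 of 14 h held 242 and 118 CPM, summed, of the smooth septate junction genes mesh, Ssk, Tsp2A and hoka, against 1.57 to 4.85 CPM in the control libraries. The other mutants held 23.8 and 2.1 CPM at 12 h and 2.14 and 8.15 CPM at 14 h. The median log2 difference of these 4 genes between genotypes was 6.02 at 12 h and 4.56 at 14 h, beside 0.01 and 0.05 over all genes. With edgeR only mesh was called, higher in 12 h mutants (5.33, adjusted p 0.0487), where 7.94% of all genes tested were. That call was lost without any 1 of 7 libraries (2.48 to 5.52, adjusted p 0.0699 to 0.307). The 12 h control replicate 1 stood apart in scrib, as given with that gene. Of the 12 h controls it was also the highest for sinu, Mcr and Tsf2 and the lowest for cora and kune. For Nrx-IV, nrv2, dlg1 and l(2)gl it lay between the other 2. Among other junction genes it was highest for pck and for Fas3 (37.4 CPM against 6.78 and 5.88 CPM). The 2 times also differed in other tissue markers: summed fat body markers ran from 133 to 241 CPM at 12 h and from 401 to 639 CPM at 14 h, and hemocyte markers from 4.85 to 7.85 CPM and from 12.4 to 15.9 CPM. Of 5 fat body markers, 2 rose from 12 to 14 h in controls and 5 in mutants. Of 3 hemocyte markers tested, 3 rose in controls and 1 in mutants. Of 4 neuron markers tested, none rose in controls and 3 rose in mutants. The sum of the 5 listed was 2.02 to 9.48 CPM at 12 h. At 14 h it was 11 to 14.9 CPM in controls and 24.4 to 29.3 CPM in mutants. Epidermal and tracheal markers, from tissues that also form pleated septate junctions, summed to 47.4 to 118 CPM at 12 h and 26.3 to 59.3 CPM at 14 h. Of 4 tested, 1 rose and 1 fell in controls, and 1 fell in mutants. Of 5 muscle markers, 2 fell in controls, with sums of 10.1 to 20.1 CPM at 12 h and 4.92 to 6.04 CPM at 14 h, and none passed in mutants. The fat body markers Lsp2, Lsp1beta, Fbp1, Fbp2 and apolpp were above 0 in all libraries, and the hemocyte marker He was at 0 in 2 control libraries of each time. Of the exon bases of Lsp2, 84.6% overlap an antisense RNA gene on the opposite strand. Some of its counts could come from that gene where strand was not used. Imaginal ring and disc markers summed to 1.38 to 6.15 CPM in 12 h controls and 22.3, 5.44 and 12.4 CPM in 12 h mutants. The highest was mutant replicate 1, the library with 242 CPM of smooth junction genes. At 14 h the sums were 3.66 to 7.01 CPM in controls and 6.74 to 12.5 CPM in mutants. Of 3 tested, 1 was higher in 12 h mutants and 1 fell with time in mutants. The part of these markers in the results on time and genotype was not tested.

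From 12 to 14 h, most of the genes that changed went up. In controls, 5 of the 10 rose and 1 fell, with edgeR's quasi-likelihood test at a Benjamini-Hochberg adjusted p under 0.05 over all genes tested. By the same rule 43.2% of all genes tested changed, 20.8% up and 22.4% down. In mutants, 5 of the 10 again rose and 1 fell, against 22.6% and 22.4% of all genes tested, 45.1% together. The 5 that rose were the same in both genotypes: Nrx-IV, sinu, Mcr, Tsf2 and scrib. The gene that fell was cora in controls and kune in mutants. The median log2 fold change of the 10 genes was 0.78 in controls and 0.54 in mutants, where the medians of all genes were 0.12 and 0.14. In bulk samples, fewer cells of a type and less RNA per cell cannot be told apart.

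Between genotypes, 1 of the 10 genes was called at 12 h and 2 at 14 h, to be read beside the shares of all genes. At 12 h, 1 gene, l(2)gl, was higher in mutants and none was lower, against 7.94% of all genes tested higher and 7.87% lower. At 14 h, kune and Tsf2 were lower and none was higher, against 6.91% lower and 8.29% higher. In either direction edgeR called 15.8% of all genes at 12 h and 15.2% at 14 h. DESeq2 called 4 members at 14 h, cora, kune, Mcr and Tsf2, and 18.7% of the genes for which it gave an adjusted p. The median log2 difference of the 10 was 0.05 at 12 h and -0.02 at 14 h, beside 0.01 and 0.05 over all genes. The 2 times share no library, but the genotype and time comparisons share all their libraries with each other, so their values are set side by side and not compared as independent.

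**Figure D1:**
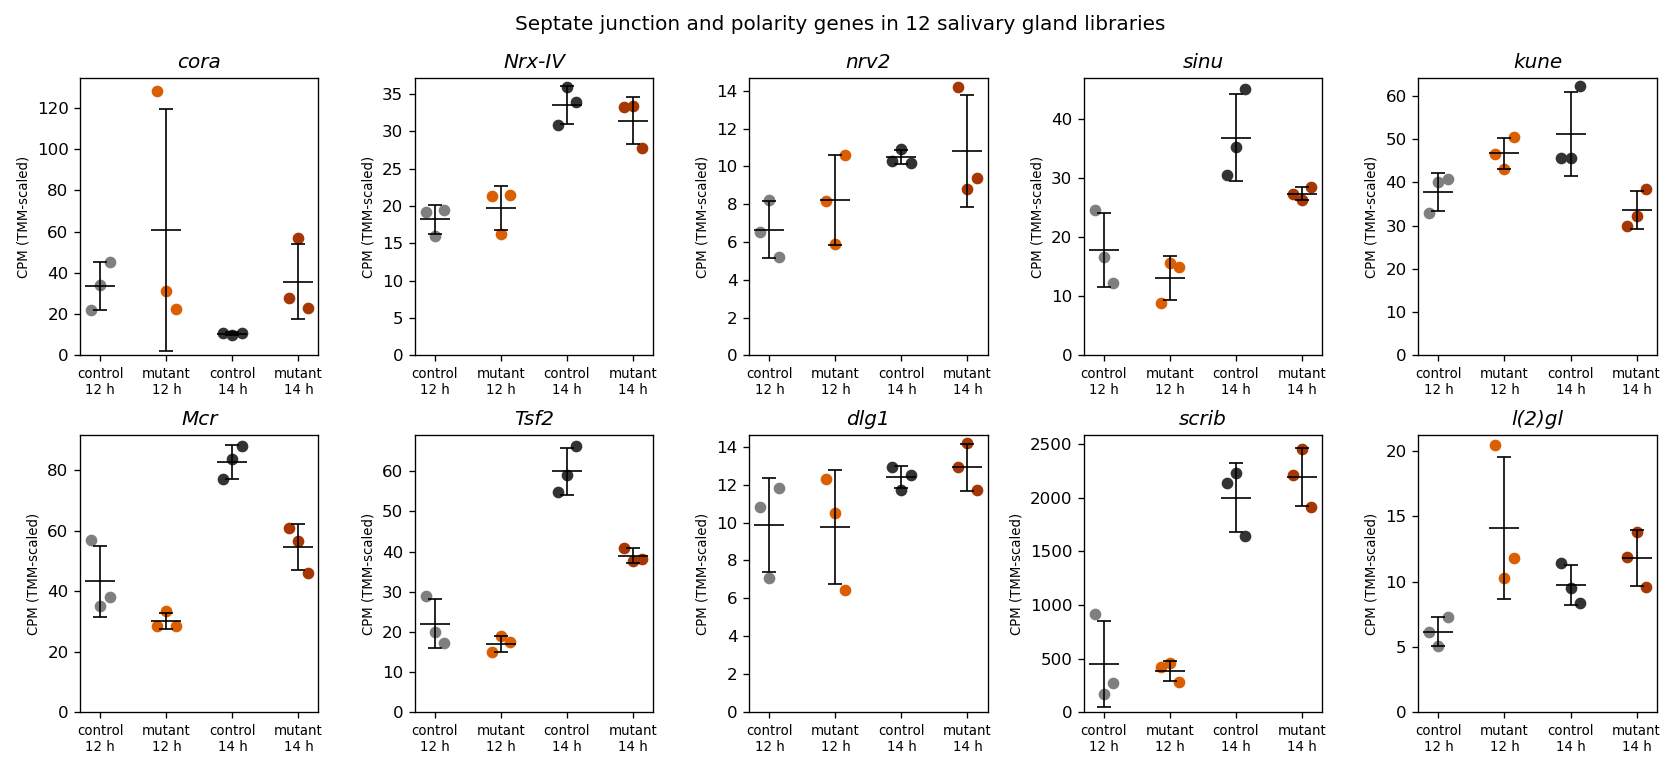
Level of each of the 10 genes in CPM (TMM-scaled) in each of the 12 libraries, by group; dots are libraries, the dash is the mean and the bars are the SD over 3 libraries, and each panel has its own axis from 0. Tsf2 and Nrx-IV stand higher in all 14 h libraries than in all 12 h libraries, cora has single high libraries in the mutants (128 CPM at 12 h and 56.8 CPM at 14 h), and scrib has 1 high library among the 12 h controls (914 CPM).

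Per length of exon, the order of the levels was led by scrib and the claudin gene kune. In 14 h controls scrib stood at 116 ± 18.6 CPM per kb of exon (SD, n = 3), kune at 48.3 ± 9.13, Tsf2 at 20.8 ± 2.03 and sinu at 17.9 ± 3.6, the last 2 with overlapping libraries. Mcr followed at 13.2 ± 0.893 CPM per kb, Nrx-IV at 6.53 ± 0.496 and nrv2 at 2.93 ± 0.101, each apart from its neighbours. At the low end, cora at 1.75 ± 0.0924 and l(2)gl at 1.63 ± 0.258 CPM per kb overlapped, and dlg1 at 1.08 ± 0.0522 was lowest. In 12 h controls kune led with 35.7 ± 4.04 CPM per kb and overlapped with scrib at 26.4 ± 23.4. There the neighbours from kune down to Nrx-IV overlapped one after another, through sinu, Tsf2, Mcr and cora. The order in 12 h mutants was again kune, 44.1 ± 3.48, before scrib, 22.4 ± 5.3, without overlap, and in 14 h mutants scrib, 127 ± 15.7, before kune, 31.7 ± 4.16. In every group dlg1 had the lowest mean per kb. Exon length was taken as the union over all annotated transcripts, so a gene with many isoforms, such as scrib with 18 and dlg1 with 21, has a longer length than any one of its transcripts.

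The claudin family gene sinu, sinuous (FBgn0010894, chromosome 3L, 5559470 to 5561598, minus strand, 1 transcript), encodes a membrane protein needed for septate junction barriers in Drosophila trachea. Its level was 24.6, 16.6 and 12.3 CPM in 12 h controls, 8.81, 15.6 and 15.0 in 12 h mutants, 30.5, 35.3 and 45.1 in 14 h controls, and 27.4, 26.3 and 28.5 in 14 h mutants. All 14 h libraries were above all 12 h libraries of both genotypes, and at 14 h all mutants were below all controls. The rise with time had a log2 fold change of 1.05 (SE 0.27, adjusted p 0.00772) in controls and 1.06 (SE 0.27, adjusted p 0.00751) in mutants. Without both libraries rich in smooth junction genes, the value in mutants was 0.86 (adjusted p 0.0579). The genotype differences, -0.44 at 12 h (SE 0.28, adjusted p 0.312) and -0.43 at 14 h (SE 0.26, adjusted p 0.333), did not pass. Without the 12 h control replicate 1 the 12 h value was -0.19.

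The other claudin gene, kune (kune-kune, FBgn0033032, chromosome 2R, 5671741 to 5672800, plus strand, 1 transcript), differed between the genotypes at 14 h. It stood at 32.9, 40.0 and 40.7 CPM in 12 h controls, 46.6, 43.1 and 50.5 in 12 h mutants, 45.6, 45.7 and 62.4 in 14 h controls, and 30.0, 32.2 and 38.5 in 14 h mutants. The mutant libraries lay above all control libraries at 12 h and below all control libraries at 14 h. At 14 h the mutant level was lower, with a log2 fold change of -0.61 (SE 0.17, adjusted p 0.0327), and at 12 h the difference was 0.30 (SE 0.18, adjusted p 0.273). Over time the level fell in mutants, -0.48 (SE 0.17, adjusted p 0.0417), and in controls it changed by 0.44 (SE 0.17, adjusted p 0.0603). The test of the genotype difference at 14 h against that at 12 h gave -0.91 (SE 0.25, unadjusted p 0.00289, adjusted p 0.0822), which did not pass, while DESeq2 gave -0.94 (adjusted p 0.0225).

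Both calls of kune were close to the threshold. That at 14 h was lost without the 14 h control replicate 1 (adjusted p 0.0524), 2 (0.0545) or 3 (0.157), or the 14 h mutant replicate 1 (0.121) or 2 (0.119), with values from -0.69 to -0.45. The fall in mutants was lost without the 12 h mutant replicate 1 or 3, the 14 h control replicate 1 or 2, or the 14 h mutant replicate 1 or 2, at adjusted p 0.0534 to 0.139 and values of -0.48 to -0.40. With library size alone, where the median of all genes moves up by 0.651 in mutants, the kune value with time was 0.02, and relative to that median it was -0.63, beside -0.62 with TMM.

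Mcr (macroglobulin complement-related, FBgn0267488, chromosome 2L, 8074117 to 8082982, minus strand, 1 transcript) encodes a large protein of the complement and alpha-2-macroglobulin family that lacks a thioester and is part of the septate junction. An antisense RNA gene shares 124 bases, 1.97% of its exon length. Mcr stood at 56.9, 35.2 and 38.2 CPM in 12 h controls, 28.5, 33.4 and 28.7 in 12 h mutants, 77.0, 83.7 and 88.2 in 14 h controls, and 61.1, 56.6 and 46.2 in 14 h mutants. At each time all mutant libraries were below all control libraries. The rise with time passed in controls, 0.93 (SE 0.19, adjusted p 0.00206), and in mutants, 0.85 (SE 0.19, adjusted p 0.00357). The genotype differences were -0.53 at 12 h (SE 0.19, adjusted p 0.0871) and -0.60 at 14 h (SE 0.19, adjusted p 0.0516), which did not pass with edgeR. DESeq2 called the 14 h difference (-0.65, adjusted p 0.0094). Over all alternatives, the 14 h value ran from -0.69 to -0.50 with adjusted p from 0.00557 to 0.178, and it passed in 9 of 20. The 12 h difference passed only without the 12 h control replicate 2 (-0.67, adjusted p 0.0475). Without the 12 h control replicate 1 it was -0.34.

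Tsf2 (transferrin 2, FBgn0036299, chromosome 3L, 12530436 to 12533724, minus strand, 1 transcript) encodes the fly melanotransferrin, an iron-binding protein of the septate junction. Its values were 28.9, 20.1 and 17.3 CPM in 12 h controls, 14.9, 18.9 and 17.4 in 12 h mutants, 54.7, 59.1 and 66.3 in 14 h controls, and 41.0, 37.7 and 38.2 in 14 h mutants. Every 14 h library was above every 12 h library, and at 14 h mutants and controls did not overlap. The rise with time was 1.44 (SE 0.19, adjusted p 0.000113) in controls and 1.19 (SE 0.20, adjusted p 0.000428) in mutants. At 14 h the mutant level was lower, with a log2 fold change of -0.62 (SE 0.19, adjusted p 0.0428), and at 12 h the difference was -0.37 (SE 0.20, adjusted p 0.226). Without the 12 h control replicate 1 the 12 h value was -0.19. The 14 h call was lost without any one of the 6 libraries of that time, the 14 h control replicates 1, 2 and 3 and the 14 h mutant replicates 1, 2 and 3, at adjusted p 0.0755 to 0.151 and values of -0.69 to -0.55.

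Nrx-IV (neurexin IV, FBgn0013997, chromosome 3L, 12146519 to 12156990, plus strand, 2 transcripts) encodes the transmembrane neurexin of the septate junction, whose cytoplasmic tail binds Coracle. It was measured at 19.2, 16.0 and 19.4 CPM in 12 h controls, 21.3, 16.3 and 21.4 in 12 h mutants, 30.8, 35.9 and 33.9 in 14 h controls, and 33.2, 33.3 and 27.8 in 14 h mutants. Every 14 h library exceeded every 12 h library, and the genotypes overlapped at both times. The rise was 0.88 (SE 0.17, adjusted p 0.00118) in controls and 0.67 (SE 0.17, adjusted p 0.00585) in mutants, and it passed in all 20 alternatives in each genotype. The genotype differences were 0.11 at 12 h and -0.09 at 14 h (adjusted p 0.697 and 0.782).

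The sodium pump subunit gene nrv2 (Nervana 2, FBgn0015777, chromosome 2L, 6789770 to 6798862, minus strand, 6 transcripts) encodes a beta subunit that septate junctions need for a role other than ion pumping. It stood at 6.53, 8.22 and 5.19 CPM in 12 h controls, 8.17, 5.87 and 10.6 in 12 h mutants, 10.3, 10.9 and 10.2 in 14 h controls, and 14.2, 8.79 and 9.36 in 14 h mutants. In controls the 14 h libraries were all above the 12 h libraries, and in mutants the 2 times overlapped. No comparison passed with edgeR and TMM over all libraries. The time difference was 0.65 in controls (SE 0.27, adjusted p 0.0683) and 0.39 in mutants (SE 0.26, adjusted p 0.247). The genotype difference was 0.30 at 12 h (adjusted p 0.508) and 0.04 at 14 h (adjusted p 0.945). Relative to the median of all genes, the time differences were 0.53 and 0.25.

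Among the 7 chosen junction genes, cora alone had a fall from 12 to 14 h called in controls. Coracle (FBgn0010434, chromosome 2R, 19229063 to 19243751, plus strand, 6 transcripts) is the FERM domain protein of the band 4.1 family that links Nrx-IV to the cell cortex. Its values were 21.8, 34.2 and 45.2 CPM in 12 h controls, 128, 31.2 and 22.4 in 12 h mutants, 11, 9.94 and 10.8 in 14 h controls, and 27.6, 56.8 and 23.0 in 14 h mutants. The 14 h controls were the lowest of all groups and lay close together, all mutant libraries of 14 h lay above them, and at 12 h the genotypes overlapped. The fall in controls was -1.67 (SE 0.58, adjusted p 0.0348), a 3.18-fold lower level. In mutants the value was -0.76 (SE 0.55, adjusted p 0.282). The 14 h genotype difference was 1.76 (SE 0.58, adjusted p 0.0601) and did not pass with edgeR, and DESeq2 called it (1.71, adjusted p 0.0189). Over all alternatives it ran from 1.24 to 1.99 with adjusted p from 0.00236 to 0.236, and it passed in 7 of 20. At 12 h it was 0.85 (SE 0.56, adjusted p 0.339).

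The fall of cora in controls was lost without the 12 h control replicate 2 (adjusted p 0.0691) or 3 (0.111), or without the 14 h control replicate 1 (0.087), 2 (0.0977) or 3 (0.0869), with values of -1.71 to -1.42. With library size alone it was -1.11 (adjusted p 0.12), which is -1.75 relative to the median of all genes, beside -1.79 with TMM. The change in mutants turned to 0.41 (adjusted p 0.433) without the 12 h mutant replicate 1.

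The highest cora libraries were those that held gut-type junction genes. The sum of mesh, Ssk, Tsp2A and hoka was 3.2, 2.16 and 4.85 CPM in 12 h controls, 242, 23.8 and 2.1 in 12 h mutants, 2.68, 1.57 and 1.89 in 14 h controls, and 2.14, 118 and 8.15 in 14 h mutants. The libraries with 242 and 118 CPM of these genes were those with 128 and 56.8 CPM of cora. The gene hoka was at 0 in all 3 of the 12 h controls and Ssk in 2 of them, and each was at 0 in 1 of the 14 h mutants. The 6 gut enzyme genes summed to at most 2.88 CPM in any library, and none passed the filter. Without both libraries, cora was higher in 14 h mutants than in 14 h controls by 1.26 (adjusted p 0.019), with 2 mutant libraries left, at 27.6 and 23.0 CPM. Without the 14 h mutant replicate 2 alone the value was also 1.26, and it did not pass (adjusted p 0.236). Without both libraries and the 12 h control replicate 1 it was 1.24 (adjusted p 0.0027), in a fit that left out the 2 highest cora libraries. At 12 h, the value without the mutant replicate 1 was -0.32 (adjusted p 0.645). The genotype difference at 14 h against that at 12 h was 0.91 (adjusted p 0.722) over all libraries and 1.85 (adjusted p 0.0116) without the 3 libraries. That fit was the only 1 of 19 alternatives in which it passed. Without single libraries it ran from 0.41 to 2.08, with adjusted p from 0.0778 to 0.948.

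**Figure D2:**
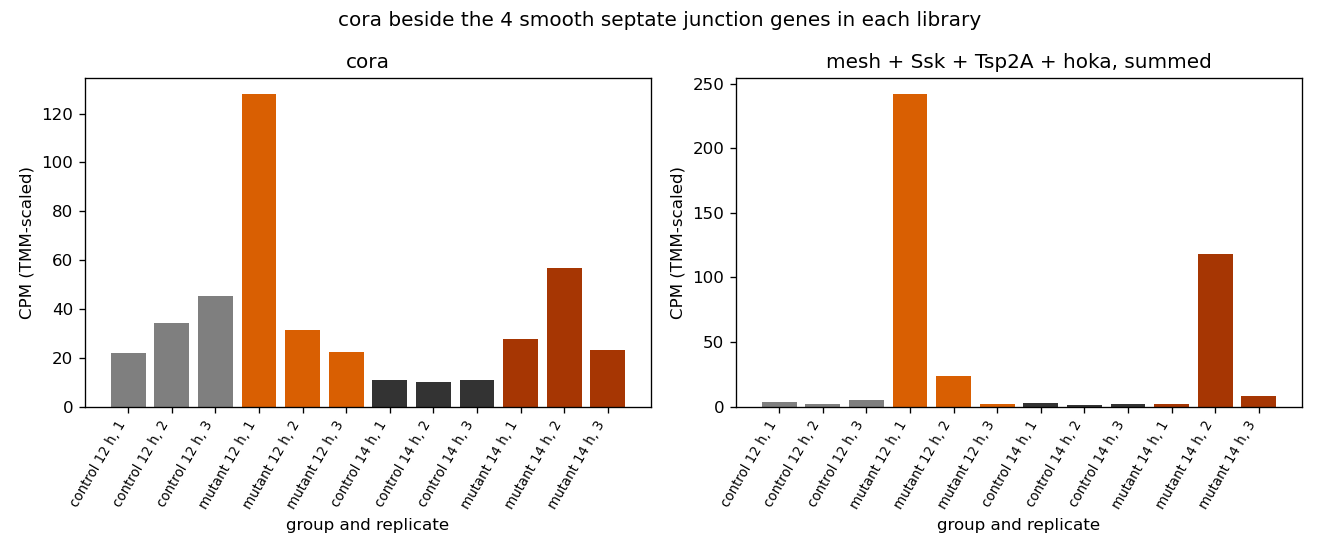
CPM (TMM-scaled) of cora (left) and of the 4 smooth septate junction genes summed (right) in each of the 12 libraries, as bars from 0, with the group and replicate named on the axis. The 2 libraries with 242 and 118 CPM of smooth junction genes are those with the highest cora, 128 and 56.8 CPM, while the remaining 14 h mutants hold 27.6 and 23.0 CPM of cora with 2.14 and 8.15 CPM of smooth junction genes.

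The polarity gene scrib had the largest fitted rise of the 10 in each genotype, and the highest CPM in each library. Scribble (FBgn0263289, chromosome 3R, 26536350 to 26604051, plus strand, 18 transcripts) is a scaffold with leucine-rich repeats and PDZ domains. Its counts were 914, 175 and 272 CPM in 12 h controls, 419, 456 and 283 in 12 h mutants, 2140, 2230 and 1640 in 14 h controls, and 2210, 2450 and 1910 in 14 h mutants. All 14 h libraries were above all 12 h libraries, the genotypes overlapped at both times, and the 12 h control replicate 1 was far above the other 2 of its group. The rise was 2.14 (SE 0.48, adjusted p 0.00339), 4.41-fold, in controls and 2.51 (SE 0.49, adjusted p 0.00132), 5.68-fold, in mutants. Without the 12 h control replicate 1 the rise in controls was 3.09. The genotype differences were -0.24 at 12 h (SE 0.46, adjusted p 0.77) and 0.13 at 14 h (SE 0.46, adjusted p 0.897); without the 12 h control replicate 1 the former was 0.73 (adjusted p 0.091).

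As scrib rose, its share of the summed CPM of the 10 genes went from 81.5%, 49% and 58% in 12 h controls to 88.3%, 88.1% and 82.9% in 14 h controls. In mutants the shares were 59.1%, 71.1% and 60.5% at 12 h and 89.5%, 89.8% and 89.1% at 14 h.  The 12 h control replicate 1 also held more of the salivary gland factor sage, 153 CPM against 32.2 and 37.6 CPM, and the part of this in the scrib value was not tested.

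Neither partner of Scribble passed between the times with edgeR and TMM over all libraries. Discs large, dlg1 (FBgn0001624, chromosome X, 11369665 to 11409776, plus strand, 21 transcripts), is a membrane-associated guanylate kinase with PDZ domains. It stood at 10.8, 7.07 and 11.8 CPM in 12 h controls, 12.3, 10.5 and 6.45 in 12 h mutants, 12.9, 11.7 and 12.5 in 14 h controls, and 12.9, 14.2 and 11.7 in 14 h mutants. No comparison of dlg1 passed in that fit. Its time differences were 0.33 (SE 0.25, adjusted p 0.312) in controls and 0.40 (SE 0.25, adjusted p 0.206) in mutants. The genotype differences were -0.01 at 12 h and 0.06 at 14 h. Whether scrib and dlg1 differ in their change was not tested.

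Lethal giant larvae, l(2)gl (FBgn0002121, chromosome 2L, 9839 to 21376, minus strand, 11 transcripts), is a WD40 repeat protein that is kept out of the apical domain by aPKC. Its values were 6.15, 5.05 and 7.27 CPM in 12 h controls, 20.4, 10.3 and 11.8 in 12 h mutants, 11.4, 9.52 and 8.33 in 14 h controls, and 11.9, 13.8 and 9.55 in 14 h mutants. The 12 h controls were below all libraries of the other groups, and at 14 h the genotypes overlapped. It was higher in mutants at 12 h by 1.20 (SE 0.28, adjusted p 0.013), 2.30-fold. The call was lost without the 12 h control replicate 2 (1.05, adjusted p 0.0555) or the 12 h mutant replicate 1 (0.85, adjusted p 0.0524), the latter being the library with 242 CPM of smooth junction genes. At 14 h the difference was 0.27 (adjusted p 0.586). Over time it was 0.67 in controls (SE 0.28, adjusted p 0.0726) and -0.26 in mutants (adjusted p 0.447), the latter 0.24 with library size alone. The genotype difference at 14 h against that at 12 h was -0.93 (SE 0.39, unadjusted p 0.0328, adjusted p 0.304).

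**Figure D3:**
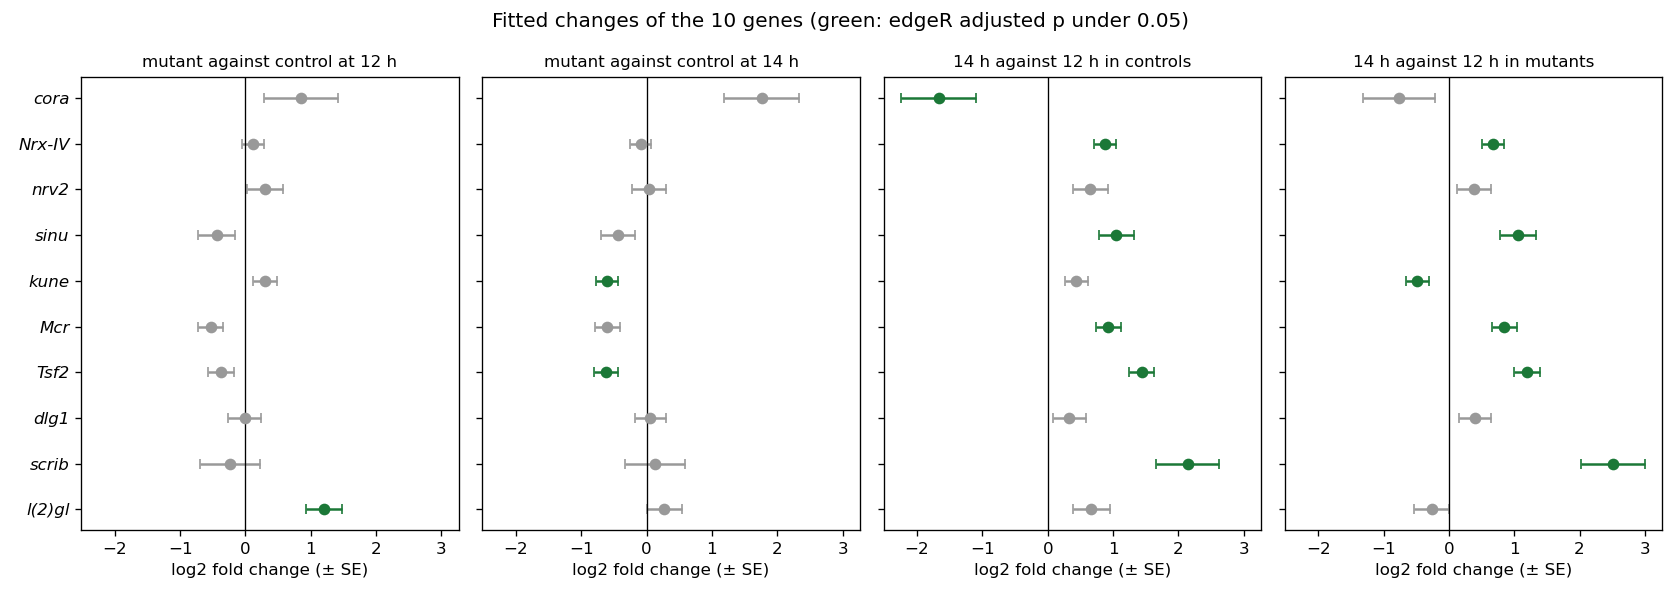
Fitted log2 fold change of each of the 10 genes with its SE in 4 comparisons, from edgeR over 12 libraries; green points have an adjusted p under 0.05 and the vertical line marks no change. The 5 genes Nrx-IV, sinu, Mcr, Tsf2 and scrib are green and right of the line in both time comparisons, and in the genotype comparisons l(2)gl at 12 h (1.20) and kune (-0.61) and Tsf2 (-0.62) at 14 h are green.

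The scale bears on the time comparisons. With TMM the median of all genes was 0.124 in controls and 0.141 in mutants, with RLE size factors 0.0494 and 0.0372, and with library size alone 0.639 and 0.651. Relative to these medians the members moved little between scalings: scrib was at 2.02, 2.04 and 1.94 in controls, and Tsf2 at 1.31, 1.32 and 1.29. The 5 genes that rose passed under all 3 scalings in both genotypes. With library size alone nrv2, kune, dlg1 and l(2)gl were called higher in controls too, at 1.17, 0.96, 0.85 and 1.19. In mutants nrv2 (0.90, adjusted p 0.0284) and dlg1 (0.93, adjusted p 0.01) were also called higher under that scaling.

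No member passed the test of whether the genotype difference changed between the times, with edgeR over all libraries, where 2.72% of all genes did. At an unadjusted p under 0.05 there were 2 members, kune and l(2)gl, beside 13.5% of all genes, and DESeq2 called 1, kune, beside 4.4% of all genes. Libraries did not overlap between the times for 8 members that were higher and 1 that was lower at 14 h in controls, where 30.4% and 26% of all genes did not overlap, and for 5 and 1 in mutants, beside 29.6% and 25.4%. Between genotypes, 2 members lay fully higher and 1 fully lower in mutants at 12 h, beside 14% and 13.7% of all genes, and 1 and 4 at 14 h, beside 22.2% and 20.3%.

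Other proteins of the same junction were read from a list of 8 partners: Nrg, Cont, Atpalpha, nrv1, pck, vari, Lac and Fas3. At 12 h 2 were higher in mutants and none was lower, at 14 h 1 was higher and 2 were lower, and their medians were 0.12 and -0.27. Over all genes the shares higher and lower were 7.94% and 7.87% at 12 h and 8.29% and 6.91% at 14 h. The scaffold gene vari (Varicose, a guanylate kinase family partner of the Nrx-IV complex) was higher in mutants at both times, from 46.8 ± 6.67 to 121 ± 29.1 CPM at 12 h (SD, n = 3; log2 fold change 1.37, SE 0.21, adjusted p 0.000999) and from 56.1 ± 2.77 to 122 ± 21.3 CPM at 14 h (1.12, SE 0.20, adjusted p 0.00247). Both calls held in each fit without 1 library. Of the exon bases of vari, 15.2% overlap Pomp on the opposite strand, so some of its counts could come from Pomp where strand was not used.

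The remaining genotype calls among the partners were less firm. At 12 h nrv1, the other beta subunit gene, which lies 2908 bases from nrv2, was higher in mutants, 53.6 ± 15.1 against 88.4 ± 7.31 CPM (0.72, adjusted p 0.0307). This was lost without any of 7 libraries: the 12 h control replicates 1 and 3, the 12 h mutant replicates 1, 2 and 3, and the 14 h control replicates 1 and 2 (0.45 to 0.79, adjusted p 0.0511 to 0.0989). At 14 h the claudin gene pck was lower, 55.1 ± 4.85 against 34.1 ± 5.57 CPM (-0.69, adjusted p 0.0413), and lost the call without any of the 6 libraries of 14 h (adjusted p 0.0708 to 0.152). The immunoglobulin family gene Lac, Lachesin, was lower at 14 h too, 32.4 ± 2.3 against 18.3 ± 4.94 CPM (-0.82, adjusted p 0.0417). It lost the call without any 14 h control or the 14 h mutant replicate 2 or 3 (adjusted p 0.0896 to 0.155). The 3 claudin genes read here stood at -0.43 (sinu), -0.61 (kune) and -0.69 (pck) at 14 h, of which kune and pck passed.

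Over time, 3 partners rose and 1 fell in controls, and 2 rose and 2 fell in mutants. Over all genes 20.8% rose and 22.4% fell in controls, and 22.6% and 22.4% in mutants, and the lists that follow are to be read beside these shares. The rise of pck was 1.40 (SE 0.21, adjusted p 0.000271) in controls and 0.92 (SE 0.21, adjusted p 0.00397) in mutants. The adhesion gene Fas3 rose from 16.7 ± 17.9 to 110 ± 12.1 CPM in controls (2.71, SE 0.56, adjusted p 0.00205) and from 10 ± 2.76 to 60 ± 16.6 CPM in mutants (2.58, adjusted p 0.003), and the former was 4.05 without the 12 h control replicate 1. Atpalpha, the sodium pump alpha subunit gene, fell in mutants with a log2 fold change of -1.12 (adjusted p 0.00169) and in controls with a log2 fold change of -0.68 (adjusted p 0.0278). The latter call was lost without the 12 h control replicate 2 or 3 or any 14 h control (adjusted p 0.0642 to 0.127). The beta subunit gene nrv1 fell in mutants with a log2 fold change of -1.09 (SE 0.20, adjusted p 0.00105) and stood at -0.35 in controls (adjusted p 0.184), beside 0.39 and 0.65 for nrv2.

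Of 5 genes for junction assembly (bou, crok, crim, cold and udt), 4 rose with time in controls, where 20.8% of all genes did, and 2 rose and 1 fell in mutants. The clearest genotype difference in this list was in bou, boudin, which encodes a Ly6 family protein that acts in assembly from outside the cell that makes it. It stood at 7.73 ± 1.64 CPM in 14 h controls and 41.1 ± 5.34 CPM in 14 h mutants (2.41, SE 0.30, adjusted p 0.000149), and rose from 6.7 ± 1.51 CPM at 12 h in mutants (2.61, SE 0.30, adjusted p 4.15e-05). In controls it rose by 1.39 (adjusted p 0.0042). These 3 calls held without any 1 library. At 12 h it was higher in mutants by 1.18 (adjusted p 0.0302), which was lost without the 12 h control replicate 2 or 3 or the 12 h mutant replicate 1 or 2 (0.88 to 1.24, adjusted p 0.0582 to 0.0795).

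The related Ly6 genes crim and cold rose in controls, by 1.22 (adjusted p 0.00276) and 1.19 (adjusted p 0.0028), and crim in mutants by 1.07 (adjusted p 0.00787). At 14 h crim was lower in mutants, 20.3 ± 5.24 against 10 ± 1.35 CPM (-1.02, adjusted p 0.0185), whereas bou was higher. That call was lost without the 14 h control replicate 3 or the 14 h mutant replicate 1 or 2 (-1.04 to -0.80, adjusted p 0.0563 to 0.0982). Of the exon bases of crim, 8.51% overlap Ccdc56 and mtTFB1 on the opposite strand. The gene udt, undicht, which embryonic septate junctions need, was lower at 14 h (-0.49, adjusted p 0.0308) and fell with time in mutants (-0.40, adjusted p 0.0328). These calls were lost without any of the 6 libraries of 14 h (-0.54 to -0.45, adjusted p 0.0698 to 0.107), and in mutants without any of 7 libraries (-0.45 to -0.36, adjusted p 0.051 to 0.104). With library size alone the latter was 0.11.

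At the corners where 3 cells meet, septate junctions end in tricellular junctions, represented by Gli, bark and M6. None of these passed between genotypes at 12 or 14 h with edgeR, none at an unadjusted p under 0.05, and DESeq2 called 0 at 12 h and 1 at 14 h. Over all genes, 30.3% and 27.9% had an unadjusted p under 0.05 at the 2 times, and DESeq2 called 19.1% and 18.7%. The gene bark fell with time, from 207 ± 72.0 to 103 ± 16.3 CPM in controls (-1.01, SE 0.27, adjusted p 0.00862) and from 143 ± 42.8 to 79.8 ± 10 CPM in mutants (-0.84, SE 0.27, adjusted p 0.0217). Leaving out the 12 h control replicate 3 ended the first call (-0.71, adjusted p 0.0538), and leaving out the 12 h mutant replicate 2 or the 14 h mutant replicate 3 the second (-0.74 to -0.63, adjusted p 0.0801 to 0.107). M6 rose in controls by 0.40 (adjusted p 0.0316), a call lost without any of 8 libraries (0.29 to 0.43, adjusted p 0.0518 to 0.181), and 23.3% of its exon bases overlap SAK on the opposite strand.

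Genes of the apical domain and of cortical polarity were read from a list of 10, crb, sdt, Patj, veli, baz, par-6, aPKC, Cdc42, yrt and par-1. Over time, 1 of the 10 rose and 3 fell in controls, and 1 rose and 2 fell in mutants. The apical determinant crb, Crumbs, fell from 613 ± 88.4 to 171 ± 11.8 CPM in controls (-1.84, SE 0.22, adjusted p 4.2e-05) and from 412 ± 33.2 to 234 ± 71.5 CPM in mutants (-0.82, SE 0.21, adjusted p 0.00751). The call in mutants was lost without both libraries rich in smooth junction genes (-0.83, adjusted p 0.0543). The kinase gene par-1, which acts at the basolateral side, fell with a log2 fold change of -1.91 (adjusted p 2.01e-05) and -1.73 (adjusted p 4.24e-05). The apical kinase gene aPKC rose in controls by 1.58 (adjusted p 0.00754), beside 0.34 in mutants (adjusted p 0.499). The 12 h mutants held 17.8, 4.72 and 6.29 CPM, the highest being the library with 242 CPM of smooth junction genes. Without that library, the 12 h mutant replicate 1, aPKC rose in mutants by 1.14 (adjusted p 0.00549). The difference between the changes of the 2 genotypes did not pass with it (-1.24, adjusted p 0.357) or without it (-0.44, adjusted p 0.726).

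Between genotypes, yrt, Yurt, a FERM protein that restrains Crumbs, was lower in mutants at 12 h, 53.5 ± 15.3 against 20.4 ± 0.923 CPM (-1.39, SE 0.21, adjusted p 0.000925), in each fit without 1 library as well. Also at 12 h the scaffold gene par-6 was lower (-0.56, adjusted p 0.03). It lost the call without the 12 h control replicate 3, the 12 h mutant replicate 1 or the 14 h control replicate 2 (adjusted p 0.0508 to 0.112). At 14 h sdt, Stardust, a Crumbs scaffold, was higher (0.70, adjusted p 0.0366), a call lost without any of 9 libraries (0.57 to 0.74, adjusted p 0.052 to 0.147). In mutants yrt rose with time (0.54, adjusted p 0.0481), a call also lost without any of 9 libraries (0.43 to 0.55, adjusted p 0.0664 to 0.163).

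Adherens junctions lie apical to septate junctions, and 8 of their genes were read: shg, arm, alpha-Cat, p120ctn, ed, cno, pyd and Vinc. In each genotype 2 rose and 1 fell with time. Vinc, vinculin, fell from 1370 ± 342 to 232 ± 9.08 CPM in controls (-2.56, SE 0.24, adjusted p 8.65e-06) and from 1470 ± 366 to 338 ± 42.7 CPM in mutants (-2.12, SE 0.24, adjusted p 3.23e-05). The scaffold genes cno (afadin) and pyd (the ZO-1 homologue) rose 2.61-fold and 1.73-fold in controls (adjusted p 0.000447 and 0.0189) and 1.77-fold and 2.24-fold in mutants (adjusted p 0.0101 and 0.00218). Of these calls, pyd in controls was lost without the 12 h control replicate 2 or the 14 h control replicate 1 (log2 fold changes 0.59 to 0.61, adjusted p 0.0929 to 0.1), and cno in mutants without the 12 h mutant replicate 3 (0.62, adjusted p 0.0508).

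Between genotypes, the beta-catenin gene arm was lower in mutants at 12 h (-0.61, adjusted p 0.0375), a call lost in 10 of the 12 fits without 1 library (adjusted p 0.0527 to 0.107). At 14 h p120ctn, another catenin gene, was lower (-0.68, adjusted p 0.0325). Its call was lost without the 14 h control replicate 2 or 3 or any 14 h mutant (-0.78 to -0.50, adjusted p 0.0513 to 0.158).

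**Figure D4:**
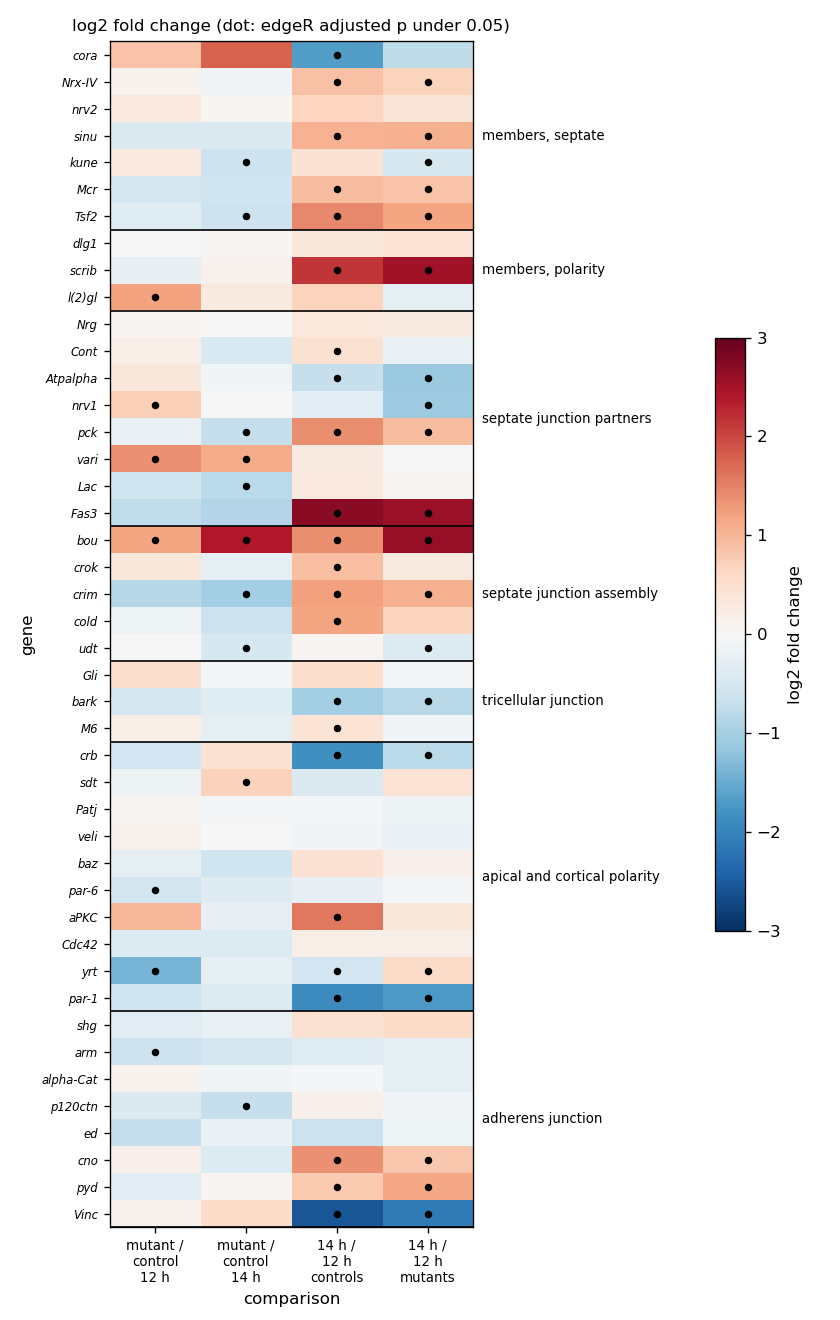
Fitted log2 fold change in 4 comparisons for the 10 genes and the genes of the other junction and polarity lists, as a colour scale, with a dot where the adjusted p is under 0.05. In the rows of the 10 genes the dots lie mostly in the time comparisons, and among the other genes vari (1.37 and 1.12) and bou (1.18 and 2.41) carry a dot in both genotype comparisons.

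Among the 10 genes, the profiles over the 12 libraries were most alike for sinu and Tsf2, with a root mean square difference of 0.205 in log2 CPM centred on each gene's mean. Mcr and Tsf2 followed at 0.243 and sinu and Mcr at 0.263, and cora and scrib were farthest apart at 2.04. Among 2808 genes with a mean of at least 10 CPM and a symbol that is not provisional, the nearest to dlg1 were Apc (0.115) and Rich (0.149), to Nrx-IV nsl1 (0.134) and ClpX (0.145), and to Tsf2 pinta (0.143) and mahe (0.149). Those nearest to kune were Set1 (0.151) and AP-2sigma (0.173), to Mcr ClC-b (0.156) and msps (0.157), and to sinu CecC (0.197) and Tsf2 itself. The nearest to nrv2 were Ndf (0.202) and spi (0.219), and to l(2)gl Tep4 (0.223) and Dyrk2 (0.244). For the genes with the widest spread the nearest lay farther off, retm (0.298) and MYPT-75D (0.302) for scrib and Rip11 (0.421) and MESR3 (0.486) for cora. These distances are a description over 12 libraries that share the same 4 groups.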

How the data were processed

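Total RNA of salivary glands was sequenced in 12 libraries, per the labels prepared with the NucleoSpin RNA kit and a standard Illumina protocol. The authors deposited raw read counts per gene, whole numbers with no normalization. The submitters' processing notes name cutadapt 1.16, STAR 2.7.6a, featureCounts 1.6.3, DESeq2 1.30.1 and the build BDGP6, without order or role. Which annotation release was counted, whether strand was used and how multi-mapped reads were handled are not given in the sources used here. Without strand, reads of genes that overlap on opposite strands cannot be told apart.

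Of 17807 gene identifiers, 17710 were matched to names, positions and exons in Ensembl release 115 (BDGP6); of 96 listed symbols 95 were found, the exception being esg. Totals ran from 6977403 to 9497317 counts; intervals and limits from counts cover counting error only. After filterByExpr, 7584 genes were fitted with TMM factors and edgeR 4.0.16 under R 4.3.3 (quasi-likelihood F test) as 4 group means with 8 residual degrees of freedom. P-values were adjusted by Benjamini-Hochberg over all 7584 genes, with calls at adjusted p under 0.05. The SE is the log2 fold change divided by the root of the F statistic. Levels are TMM-scaled CPM, and levels per kb are CPM over the union of exons. Replicate numbers were not taken to pair libraries: in 18 same-number pairs the deviations from group means correlated from -0.257 to 0.238.

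Named are all 10 members; up to 3 genes of each junction or polarity list with the smallest p among those called in a comparison; for each member the 2 genes with the nearest profile; and Eip93F. Any gene named beyond these was picked with its values in view. The members and lists were chosen with earlier results of these data known. Alternatives were DESeq2 1.42.0, RLE size factors, library size alone, no filter, a fit of the compared groups only, the replicate number as a block, leaving out each library in turn, and leaving out the 2 libraries with gut-type junction genes with or without the 12 h control replicate 1. The libraries left out together were picked from values in these data, and 2 of them held the highest cora. The p-values of cora in those fits therefore depend on that choice. Sequences of the genes were not used here.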

Additional observations from a re-analysis of the deposited data

How the results depend on the processing

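Of the 10 genes, the rises of Nrx-IV, Mcr, Tsf2 and scrib with time passed in each genotype under all 20 alternatives, and that of sinu in all but 1 (mutants, without the 2 libraries rich in smooth junction genes). The number of members called stayed between 5 and 9 in controls and between 4 and 7 in mutants, beside 6. At 12 h the 1 call went to 0 with the compared groups only, without the 2 libraries rich in smooth junction genes and when the 12 h control replicate 1 was dropped as well, and lay between 0 and 1 without single libraries. At 14 h the number was 2 with kune and Tsf2, and 4 with DESeq2 and with the compared groups only. It was 1 with library size alone, which lost Tsf2 (adjusted p 0.0845). Without a filter it was 1 again, but both kune (0.0714) and Tsf2 (0.0788) were lost and cora (0.0178) was called. Likewise without those 2 libraries the 1 call was cora (0.019), with kune (0.144) and Tsf2 (0.142) lost. Without single libraries the number lay between 0 and 4. For the change of the genotype difference, 0 became 1 with DESeq2 and without the 3 libraries. The cause was not tested.

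Some values that had not passed changed sign. Without those 2 and without all 3 libraries, cora at 12 h was -0.32 and -0.61 and dlg1 at 14 h -0.01 and -0.04; without the 3 libraries sinu at 12 h was 0.03 and scrib 0.67. With library size alone, l(2)gl in mutants over time was 0.24. Under that scaling the falls of kune and udt in mutants, which had passed, changed sign too, to 0.02 and 0.11, and that of crb lost its call (-0.29, adjusted p 0.283). Over the alternatives other than leaving out 1 library, the fall of Atpalpha in controls came as close to no change as -0.13. The falls of bark came as close as -0.45 in controls and -0.3 in mutants. Without single libraries the 12 h values ran from -0.32 to 1.22 for cora, -0.23 to 0.20 for dlg1 and -0.61 to 0.73 for scrib, the 14 h values from -0.21 to 0.17 for nrv2, -0.01 to 0.12 for dlg1 and -0.00 to 0.21 for scrib, and the values in mutants over time from -1.26 to 0.41 for cora and -0.49 to 0.09 for l(2)gl.

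With the replicate number as a block, the numbers of members called were 1 at 12 h, 1 at 14 h (Tsf2 at adjusted p 0.0686), 7 in controls (kune at 0.0429 added), 6 in mutants and 0 for the interaction; the numbers do not pair the libraries.

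Over all genes, the calls at 12 h went from 1199 to 459 with the compared groups only, 677 and 792 without the 2 and the 3 libraries, and 798 without the 12 h mutant replicate 1. At 14 h they went from 1153 to 2128 with the compared groups only and to 701 without the 14 h control replicate 2. For the interaction 206 became 333 with DESeq2, 84 without those 2 libraries, and 105 to 430 without single ones.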

Other observations

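Outside the lists above, moody was lower in mutants at both times. It encodes a G protein-coupled receptor known in Drosophila for organising septate junctions of the glial blood-brain barrier, and it was on the glial marker list. Its level was 207, 270 and 343 CPM in 12 h controls, 139, 137 and 123 in 12 h mutants, 164, 148 and 145 in 14 h controls, and 72.2, 72.1 and 67.1 in 14 h mutants, so the genotypes did not overlap at either time. The log2 fold change was -1.04 at 12 h (SE 0.18, adjusted p 0.00214) and -1.11 at 14 h (SE 0.18, adjusted p 0.000982). It fell with time with a log2 fold change of -0.84 (adjusted p 0.00213) in controls and -0.91 (adjusted p 0.00125) in mutants. The other glial markers were low: alrm was at 0 in all 12 h libraries, Eaat1 was at most 0.897 CPM and wrapper at most 1.33 CPM. The glial transcription factor gene repo was at most 3.06 CPM. In controls it went from 0.447 ± 0.379 to 1.36 ± 0.192 CPM (SD, n = 3; 1.59, adjusted p 0.112). In mutants it went from 0.304 ± 0.135 to 1.43 ± 1.42 CPM (2.16, adjusted p 0.047), a call close to the threshold. The 12 h mutant mean lay below the level of 3 counts there (0.429 to 0.483 CPM), and the 14 h SD was nearly as large as the mean. The alternatives were not read for repo. The gene moody was chosen after its values were seen.

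The chitin deacetylase gene serp, serpentine, which shapes the tracheal tube lumen in Drosophila, went from 51.7 ± 14.7 to 12.8 ± 1.87 CPM (SD, n = 3) from 12 to 14 h in controls (-2.01, adjusted p 0.000124) and from 46.3 ± 9.88 to 23.7 ± 6.82 CPM in mutants (-0.96, adjusted p 0.0107). At 14 h it was higher in mutants (0.89, adjusted p 0.0436), a call close to the threshold. The alternatives were not read for serp. On the same list of epidermal and tracheal markers, trh rose in controls from 1.09 ± 0.168 to 2.96 ± 0.272 CPM (1.44, adjusted p 0.00243), vvl stood at 0.335 ± 0.213 and 1.72 ± 0.446 CPM (2.29, adjusted p 0.0526) and verm at 27.1 ± 21.2 and 13.9 ± 4.97 CPM (-0.97, adjusted p 0.239). The gene serp was chosen after its values were seen.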
